A study of Mus musculus with 8 samples.

Results

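The testis small RNA table held 730 entries of the miRNA class, and 97 of them carried an Ensembl transcript identifier in place of a miRNA name. These 97 entries, out of 20558 small RNAs listed, were chosen by the class column and the first letters of the identifier, with no use of the counts. The other entries of the class were 576 mature miRNA names and 57 precursor names. Of the 97 identifiers, 12 were found in the gene annotation of the mouse build used for the counts, and 85 were not. By contrast, 458 of the 459 Ensembl-named entries of the other classes were found there. For the 85, neither a position nor a sequence was analysed here.

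Small RNA was sequenced on a SOLiD instrument from the testes of 8 adult male C57Bl/6 mice, 4 on a standard diet (SD: M1N, M2N, TN1 and TN2) and 4 on a Western-like diet rich in sugar and fat (WD: M1W, M2W, M3W and M5W). The start of the WD is put at 4 weeks of age in the sample labels and at 3 weeks in the methods text. The labels carry 1 feeding description, a high-lipid diet, for all 8 mice, and it was not applied to the SD mice. The names of the SD mice are of 2 kinds, and no label says what sets M1N and M2N apart from TN1 and TN2, so each pair is also given apart.

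Between 2064562 and 3253798 reads were counted per mouse, and 3 counts corresponded to 0.933 to 1.39 CPM (reads scaled to the library total times its TMM factor, a correction for composition). The 3 germ cell markers summed to 13570 to 16030 CPM in M1N and M2N, 12190 to 15110 CPM in TN1 and TN2 and 12020 to 16940 CPM in WD mice. Most of the sum was miR-34c-5p and miR-34b-5p, whereas miR-449a-5p had 6709 and 5142 reads in M1N and M2N and 2029 to 3434 in the other 6 mice. The liver miRNA miR-122-5p, the only liver marker on the list, had 49 reads in TN1 and 28 in TN2, and was listed at 0 in the other 6 mice. Its other arm, looked up after these values were seen, had 12 and 9 reads in TN1 and TN2 and 0 elsewhere. The summed level of the brain markers miR-9-5p and miR-124-3p was 29.1 to 31.6 CPM in M1N and M2N, 87.5 to 90.4 CPM in TN1 and TN2, and 86.2 to 159 CPM in WD mice. The sum was mostly miR-124-3p, and miR-9-5p had 15 and 27 reads in M1N and M2N, 31 and 15 in TN1 and TN2, and 55, 11, 22 and 41 in the WD mice. For blood, 3 of 5 marker names were listed, and they did not all move together. The red cell miR-451 had 184 and 117 reads in M1N and M2N and 451 and 232 in TN1 and TN2, with 214, 292, 234 and 230 in the WD mice. Lower in reads, miR-144-3p had 10 and 3 in M1N and M2N, 20 and 15 in TN1 and TN2, and 13, 9, 5 and 10 in the WD mice. The myeloid miR-223-3p had 867 and 644 reads in M1N and M2N, 338 and 215 in TN1 and TN2, and 281, 516, 242 and 240 in the WD mice. The testis somatic markers, miR-202 of both arms, summed to 3609 to 4081 CPM in M1N and M2N, 4034 to 4193 CPM in TN1 and TN2 and 4187 to 7021 CPM in WD mice. That sum was mostly the 5p arm, and the 3p arm had 588 and 567 reads in M1N and M2N and 221 to 377 in the other mice. Those of smooth muscle, miR-143-3p and miR-145-5p, summed to 4149 to 4321, 3058 to 3438 and 3232 to 5921 CPM in the same sets. It followed miR-145-5p, with 11624 and 12623 reads in M1N and M2N, while miR-143-3p had 482 and 928 there and 794 to 1391 in the other mice. The part of these markers in the comparisons between sets of mice was not tested. As whole testes were sequenced, fewer cells of a type and less RNA per cell cannot be told apart.

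A miRNA gene is transcribed as a longer RNA that folds into a hairpin. The enzymes Drosha and Dicer cut the hairpin, and 1 of its arms is loaded onto an Argonaute protein, where the seed, bases 2 to 8 of the mature strand, directs it to messenger RNAs. An Ensembl miRNA transcript is a gene model of such a hairpin, placed by likeness to known miRNAs and by predicted folding. An entry under such a name refers to a hairpin model, and a mature name to a single arm. Which reads were assigned to each is not given in the sources used here.

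Of the 12 annotated hairpins, 3 belonged to well-known miRNA genes. Their sequences are shown because each contains both mature arms that the table also lists under mature names. Letters in capitals mark the mature arms, found as exact matches to RefSeq mature sequences (GRCm38.p6), and positions are those of NCBIM37.
Mir132, chr11:74987167-74987267, plus strand: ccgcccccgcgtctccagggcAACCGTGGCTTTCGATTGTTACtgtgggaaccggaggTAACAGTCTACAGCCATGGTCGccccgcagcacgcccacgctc
Mir27b, chr13:63402008-63402104, plus strand: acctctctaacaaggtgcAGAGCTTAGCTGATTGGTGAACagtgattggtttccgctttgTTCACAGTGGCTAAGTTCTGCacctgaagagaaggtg
Mir15b, chr3:68813678-68813775, plus strand: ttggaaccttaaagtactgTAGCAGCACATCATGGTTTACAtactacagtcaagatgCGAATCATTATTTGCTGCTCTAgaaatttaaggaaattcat
Mir132 (ENSMUST00000083603) lies in an intron of the long non-coding RNA gene 1700016P03Rik, Mir27b (ENSMUST00000083541) in an intron of 2010111I01Rik, and Mir15b (ENSMUST00000083646) in an intron of Smc4, a condensin subunit gene, all on the strand of the host gene. The mature arms follow with the seed in capitals.
miR-132-5p: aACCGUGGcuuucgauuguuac
miR-132-3p: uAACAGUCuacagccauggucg
miR-27b-5p: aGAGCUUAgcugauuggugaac
miR-27b-3p: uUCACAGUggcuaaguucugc
miR-15b-5p: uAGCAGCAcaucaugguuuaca
miR-15b-3p: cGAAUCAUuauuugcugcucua
No seed was shared between the 6 arms.

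Each of these hairpin entries held fewer reads than the more abundant of its arms. Mir132, known from neurons as a miRNA induced by CREB, had 6, 6, 3 and 6 reads in M1N, M2N, TN1 and TN2, and 5, 2, 4 and 1 in M1W, M2W, M3W and M5W. The table listed 181 reads over the 8 mice for miR-132-5p and 97 for miR-132-3p. Mir27b, of the cluster with Mir23b and Mir24-1, had 12, 6, 4 and 1 reads in the SD mice and 1, 2, 2 and 3 in the WD mice. Its arm miR-27b-3p had 2524 reads and miR-27b-5p 24. Mir15b, a relative of miR-16 and like it a regulator of the cell cycle, had 2, 6, 1 and 2 reads in the SD mice and 3, 1, 2 and 0 in the WD mice. Against this stood 47429 reads on miR-15b-5p, 364 on miR-15b-3p and 221 on a precursor-named entry for the same gene. The ranges of SD and WD mice overlapped for all 3 hairpin entries, and all 3 were too low to be tested.

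A second group of 5 annotated hairpin models, mir-689-2 and 4 models named mir-2134, shared a single short sequence. None of the 5 contained a RefSeq mature sequence as an exact match, and whether they are miRNAs was not tested. It is shown once, followed by the copies that differ, with the differing base in capitals.
mmu-mir-689-2, chr16:11144218-11144274, plus strand: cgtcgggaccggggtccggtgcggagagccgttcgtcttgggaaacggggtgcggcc
mmu-mir-2134-4, chr13:9833715-9833771, minus strand: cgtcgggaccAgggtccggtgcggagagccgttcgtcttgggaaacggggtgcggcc
mmu-mir-2134-1, chr1:169270500-169270555, minus strand: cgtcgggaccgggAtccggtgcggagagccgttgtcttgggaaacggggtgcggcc
The models mir-2134-4 on chromosome 9 (chr9:56071522-56071578, minus strand) and mir-2134-2 on chromosome 4 (chr4:138894219-138894275, plus strand) were identical to mir-689-2 over all 57 bases, and the build held 3 exact copies and 9 copies at 90% identity or more. With positions counted from 1 at the 5′ end of mir-689-2, the chromosome 13 model carried G11A, and mir-2134-1 carried G14A and lacked base 34. GC content was 71.4% to 73.7%. Mir-689-2 lies in an intron of Zc3h7a on the opposite strand, and the chromosome 9 model in an intron of C230081A13Rik on the same strand.

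Identical sequences did not receive identical counts. The entry mir-689-2 had 45 reads over the 8 mice, the chromosome 9 copy 22 and the chromosome 4 copy 13. By mouse, mir-689-2 had 4, 5, 17 and 10 reads in M1N, M2N, TN1 and TN2, and 1, 5, 2 and 1 in the WD mice. The chromosome 9 and chromosome 13 entries had the same count in 7 of 8 mice. Summed over the 5 entries, 44 reads fell in TN1 and 34 in TN2, against 10 in M1N, 5 in M2N and 4, 10, 4 and 1 in the WD mice. The TN mice, at 13.9 and 15.8 CPM, were thus above the other 6, which lay between 0.311 and 4.39 CPM. How reads matching several entries were counted is not given in the sources used here.

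**Figure D1:**
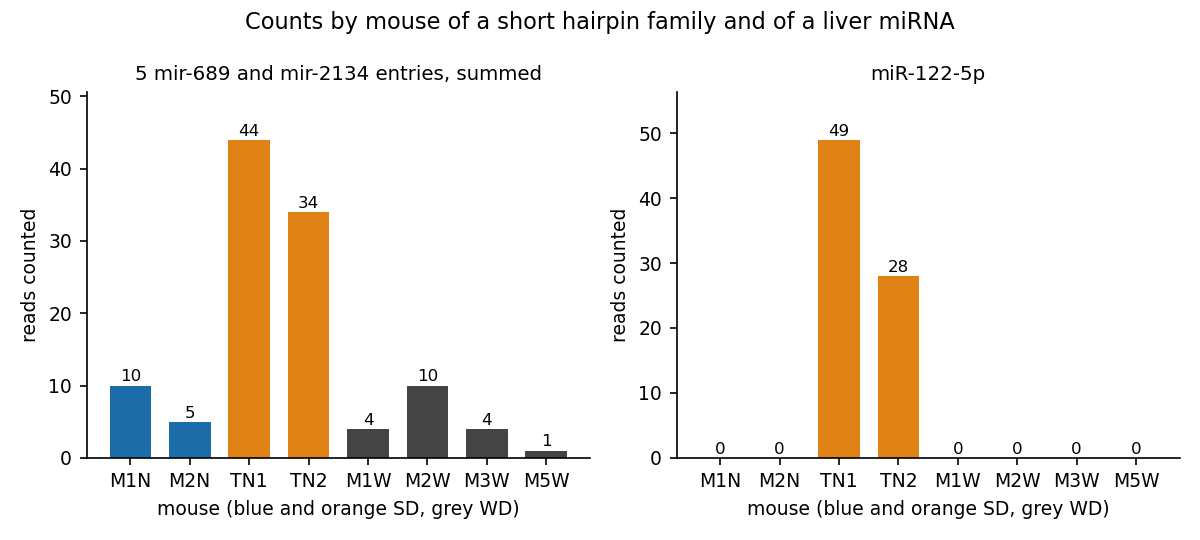
Reads counted in each mouse, summed over the 5 mir-689 and mir-2134 entries (left) and for the liver miRNA miR-122-5p (right), on linear axes from 0. TN1 and TN2 had 44 and 34 reads of these 5 entries and 49 and 28 of miR-122-5p, and no other mouse had more than 10 of the former or any of the latter.

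The miR-122-5p reads in TN1 and TN2 stand beside this family's reads in the same 2 mice. Their part in the result was not tested.

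A further 2 models, AL603804.1 and AL731552.1, contained the mature miR-690 sequence exactly, and the former also miR-3473b. They are shown because both hold the same mature sequence, and the mature matches are in capitals.
AL603804.1, chr19:42349454-42349552, plus strand: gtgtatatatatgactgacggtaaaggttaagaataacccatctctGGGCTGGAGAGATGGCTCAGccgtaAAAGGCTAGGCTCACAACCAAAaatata
AL731552.1, chr2:27257372-27257471, plus strand: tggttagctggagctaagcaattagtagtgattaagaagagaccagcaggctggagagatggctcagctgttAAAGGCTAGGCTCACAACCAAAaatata
Both ended in the same 28-base run, which had 290 exact copies in the genome. AL603804.1 lies outside annotated genes, and AL731552.1 in an intron of Vav2, a guanine nucleotide exchange factor gene, on the opposite strand. AL603804.1 had 0, 3, 1 and 0 reads in the SD mice and 1, 2, 4 and 1 in the WD mice. AL731552.1 had 1, 2, 2 and 1 reads in the SD mice and 0, 1, 0 and 4 in the WD mice. The groups overlapped for both.

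The last 2 annotated models were AC165092.1 (chr14:20110895-20110982, plus strand), outside annotated genes, and AL772216.4 (chr2:10431512-10431611, plus strand), in an intron of Sfmbt2, the host of a large miRNA cluster. AC165092.1 had 11 and 6 reads in TN1 and TN2 and at most 3 in any other mouse, whereas AL772216.4 had between 1 and 4 reads in all 8. Over the 12 hairpins the predicted folding energy ran from -22.5 to -50.9 kcal/mol per 100 bases. The 1577 annotated miRNA transcripts of this build had a median of -38.8 and a range of -88.3 to -10.3.

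The 97 entries differed widely in level. They held 16408 reads in all, and the median entry had 42 reads over the 8 mice, the lowest 9 and the highest 3152. The pair ENSMUST00000093623 and ENSMUST00000093624 alone held 6296 reads, or 38.4%. A mean of 10 CPM or more was reached by 17 entries, and 31 stayed under 1 CPM. A count of 0 in at least 1 mouse was recorded for 36 entries.

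The order of the entries is by CPM per entry and not per base, because the length was known for 12 only. ENSMUST00000093623 averaged 142 CPM over the 8 mice and ENSMUST00000093624 142 CPM, with ranges of 117 to 179 and 116 to 180. The third entry, ENSMUST00000158954, averaged 28.0 CPM (23.6 to 40.8). Next came ENSMUST00000157549 at 24.1 CPM, ENSMUST00000103243 at 23.8, ENSMUST00000157647 at 20.5, ENSMUST00000157349 at 20.4, ENSMUST00000158901 at 18.2, ENSMUST00000157328 at 17.6 and ENSMUST00000158736 at 15.5. Of the 96 neighbouring pairs in this order, 95 had ranges over the mice that overlapped. The step from the second to the third entry was the exception.

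Together the entries took 0.0651%, 0.0622%, 0.0897% and 0.0909% of all reads in M1N, M2N, TN1 and TN2, and 0.0783%, 0.0678%, 0.0684% and 0.0739% in M1W, M2W, M3W and M5W. The TN mice were highest and the M mice of the SD group lowest, with the WD mice between them. The mean share was 0.0770% ± 0.0154 (s.d., n = 4) in SD and 0.0721% ± 0.00496 (s.d., n = 4) in WD, so that the diets differed by less than their mice did (p = 0.571, two-sided exact permutation test). Against M1N and M2N alone the difference turned to 0.00848 percentage points higher in WD (exact permutation test, p = 0.133), and against TN1 and TN2 alone it was -0.0182 percentage points (exact permutation test, p = 0.133). The two-sided p was taken as double the one-sided p, and on that reckoning 0.133 is the smallest that 4 mice against 2 can give.

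The share divided into 2 parts that leaned in opposite directions. The 2 highest entries took 0.0249% ± 0.00353 (s.d., n = 4) of the reads in SD and 0.0322% ± 0.00493 (s.d., n = 4) in WD. The other entries took 0.0521% ± 0.0121 (s.d., n = 4) in SD and 0.0400% ± 0.00171 (s.d., n = 4) in WD. Neither difference passed the test (exact permutation test, two-sided, p = 0.0857 for each, 0.214 after Benjamini-Hochberg adjustment over 5 share comparisons). The part without the 2 highest was 0.0621% and 0.0627% in TN1 and TN2, 0.0442% and 0.0392% in M1N and M2N, and 0.0384% to 0.0417% in the WD mice.

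**Figure D2:**
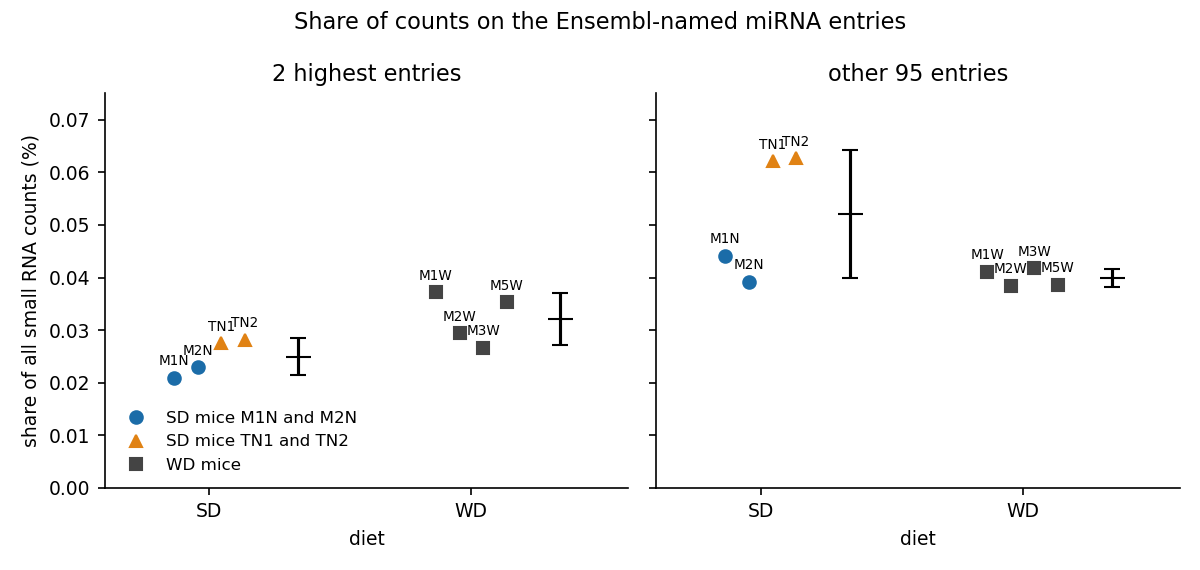
Share of all small RNA reads in each mouse taken by the 2 highest entries (left) and by the other 95 (right), in percent on an axis from 0. Points are mice, and the black bars give the mean and standard deviation of 4 mice per diet. In the right panel TN1 and TN2 stand at 0.0621% and 0.0627%, above the other 6 mice at 0.0384% to 0.0442%.

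Many of the entries had nearly the same count as another entry in every mouse. Likeness was measured as the squared difference of 2 counts divided by their sum, averaged over the 8 mice, which is about 1 for independent counts of the same level. Of 1275 pairs among the 51 entries with at least 40 reads, 50 had an index of 0.2 or less, and these pairs linked 27 entries into 8 sets. Counted once per set, the 51 entries came to 32 units. The sets were formed from the counts and are a description.

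The largest set joined 9 entries (ENSMUST00000158485, ENSMUST00000158675, ENSMUST00000158417, ENSMUST00000158808, ENSMUST00000158548, ENSMUST00000158573, ENSMUST00000157985, ENSMUST00000157664 and ENSMUST00000157275), with indices of 0.013 to 0.247 between them. Each had 9 to 12 reads in M1N, 8 to 11 in M2N, 17 to 25 in TN1 and 19 to 22 in TN2, and 19 to 21 in M1W, 11 to 14 in M2W, 9 to 12 in M3W and 24 to 28 in M5W. Outside the miRNA class, 22 of the 62 rRNA entries of the table were as close to a member of this set. All 22 were models of 5S ribosomal RNA, a small RNA of the large ribosomal subunit. How many of the other rRNA entries were also 5S models was not counted. The counts of these 22 ran from 9 to 16 in M1N and M2N, 18 to 24 in TN1 and TN2, and 9 to 30 in WD mice. A further 3 piRNA entries were as close.

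The second set joined 6 entries (ENSMUST00000157137, ENSMUST00000157352, ENSMUST00000158975, ENSMUST00000158306, ENSMUST00000158703 and ENSMUST00000158397), with indices of 0.016 to 0.278. They had 15 to 20 reads in M1N and M2N, 12 to 28 in TN1 and TN2, and 7 to 14 in WD mice. The only 2 non-piRNA entries of other classes as close were models of U1, the small nuclear RNA that recognises the 5′ splice site. These had 11 to 21, 12 to 27 and 6 to 17 reads in the same sets of mice. The snRNA class had 144 entries, and how many of the others were U1 models was not counted. Among piRNA entries 1 was as close. The 2 highest entries formed another set, with an index of 0.035, in which no mouse differed by more than 11 reads. The pair ENSMUST00000158658 and ENSMUST00000157696 had an index of 0.056, and Snord61, a small nucleolar RNA, and 3 piRNA entries had counts as close. The remaining 4 sets were pairs. Whether the entries of a set share sequence with each other or with 5S, U1 or Snord61 was not tested, since these identifiers have no sequence in the annotation used here.

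**Figure D3:**
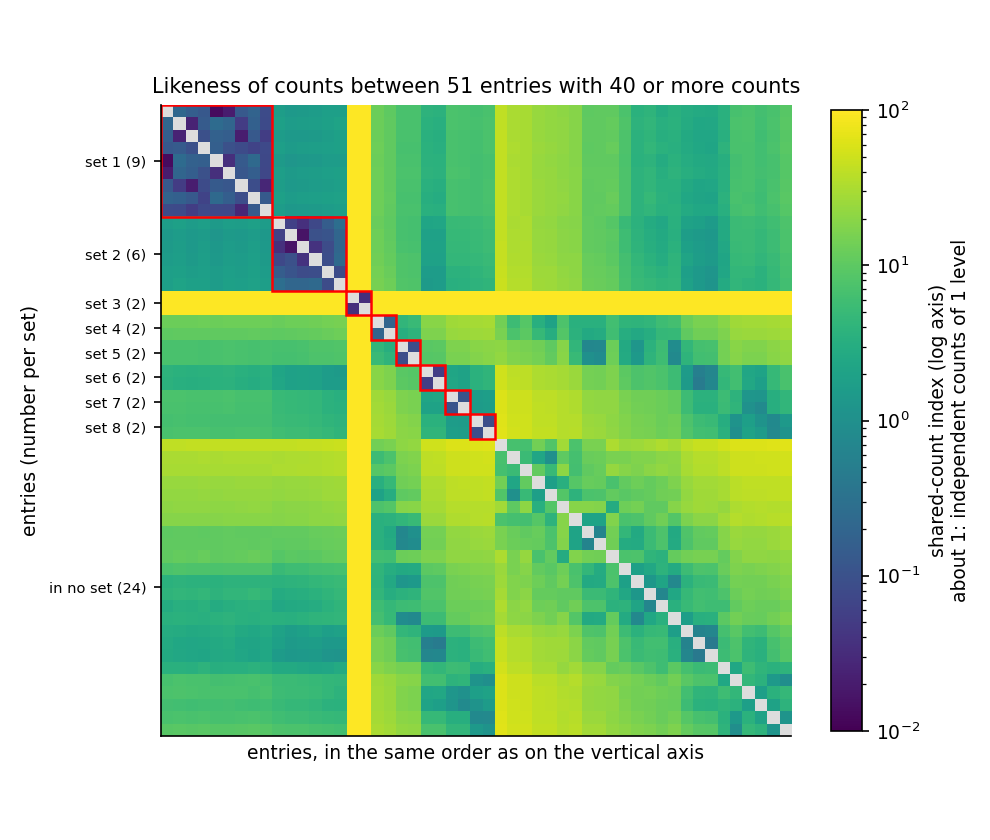
Shared-count index between all pairs of the 51 entries with 40 reads or more, on a logarithmic colour scale that ends at 0.01 and 100. Red squares enclose the 8 sets, and dark cells mark pairs whose counts were nearly equal in all 8 mice. The 9-entry and 6-entry sets stand out as dark blocks, and the 2 highest entries as a bright band against all others.

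In WD against SD, 41 of the 97 entries had enough reads to be tested. None was under 10 reads in every mouse of 1 group. No entry passed an adjusted p of 0.05 with edgeR's quasi-likelihood test, as was the case for all 16955 small RNAs tested (0%). DESeq2 and limma-voom also called 0 of the entries. An unadjusted edgeR p under 0.05 was found for 13 of the 41 entries, beside 2474 of the 16955 small RNAs. The paper's criterion of p and fold for miRNAs was taken as an unadjusted p of 0.1 or less and 1.5-fold change or more. By this criterion 12 entries were lower in WD and none was higher, or 7 when each set is counted once. The same criterion took 10.7% of all small RNAs tested. It took 49 of 366 mature miRNA names, 32 of them higher in WD. The median log2 fold change of the 41 entries was -0.04, and that of all small RNAs -0.01.

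The steepest differences were those of ENSMUST00000158853 and ENSMUST00000158901. ENSMUST00000158901 stood at 17.5, 6.06, 42.2 and 44.5 CPM in M1N, M2N, TN1 and TN2, and at 8.88, 9.65, 11.1 and 5.91 CPM in the WD mice. Both TN mice were above every other mouse, and M2N lay within the WD range. Its log2 fold change was -1.64 ± 0.46 (standard error, edgeR adjusted p = 0.318). ENSMUST00000158853 had the same pattern, at 12.7, 4.78, 29.0 and 29.6 CPM in the SD mice and 5.92, 4.82, 9.22 and 4.67 CPM in the WD mice, with a log2 fold change of -1.62 ± 0.46. ENSMUST00000157647 had 23.0, 14.3, 36.5 and 35.7 CPM in the SD mice and 13.2, 13.6, 18 and 9.95 CPM in the WD mice (log2 fold change -1.01 ± 0.29). In all 3, SD and WD mice overlapped through M2N.

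Of the 41 entries tested, 8 did not overlap between the diets, all with WD below SD, where 5.69% of all small RNAs tested were apart in either direction. These 8 were the 6 entries of the set whose counts resembled 2 U1 models, ENSMUST00000157153 and ENSMUST00000158613, or 3 units. ENSMUST00000157153 had 21.3, 10.8, 12.3 and 10.2 CPM in the SD mice and 8.88, 7.46, 8.29 and 5.91 CPM in the WD mice, a log2 fold change of -0.85 ± 0.28 (edgeR adjusted p = 0.318). ENSMUST00000158613 had 8.57, 9.25, 17.0 and 13 CPM in the SD mice and 7.23, 6.58, 7.83 and 6.53 CPM in the WD mice, a log2 fold change of -0.76 ± 0.27. Of the 6 entries of that set, ENSMUST00000157137 had 20, 17, 28 and 17 reads in the SD mice and 13, 8, 10 and 12 in the WD mice. Over the 6 entries the log2 fold change ran from -0.84 to -0.66. A further 4 entries, too low to be tested, had a lower CPM in every WD mouse than in any SD mouse, which makes 12 of all 97, beside 5.27% of all small RNAs listed. They were ENSMUST00000158810, ENSMUST00000158704, ENSMUST00000102176 and ENSMUST00000158201, each with 1 to 6 reads per SD mouse and at most 1 per WD mouse. In the last 3, SD and WD mice tied at 1 read and were apart by library scaling alone. With scaling by column totals 9 entries were apart, and ENSMUST00000158613, ENSMUST00000158704 and ENSMUST00000158201 overlapped, a setting chosen after these values were seen. The share of all small RNAs apart under that scaling was not counted.

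**Figure D4:**
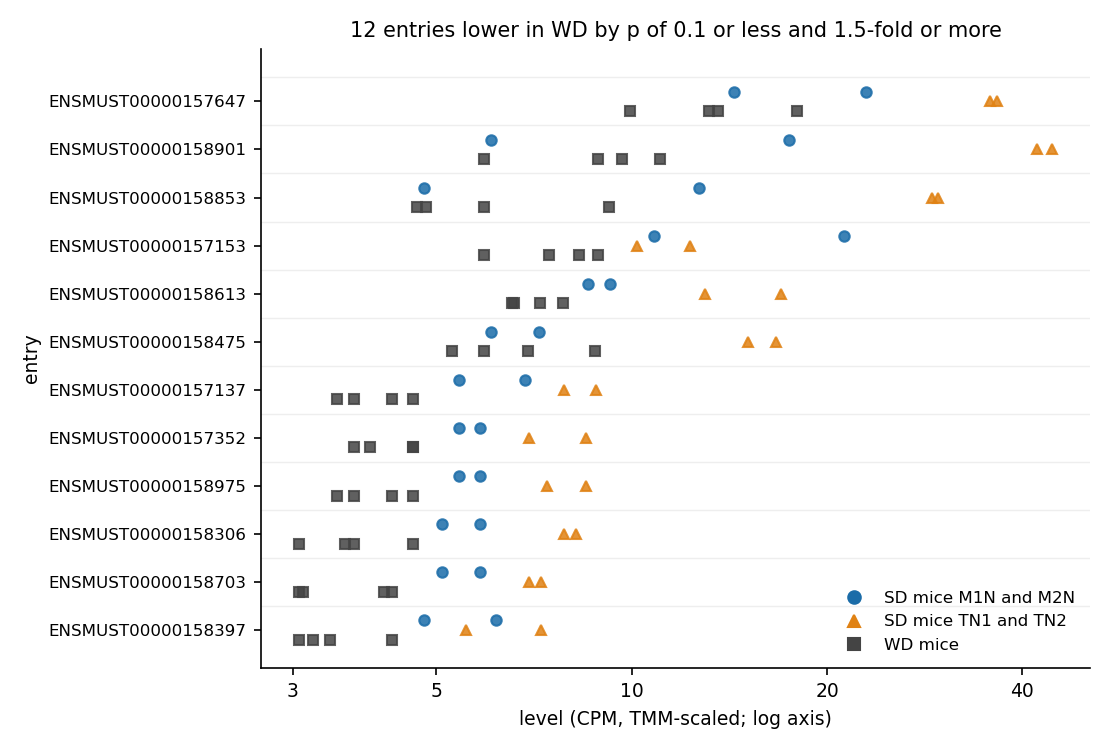
Level in each mouse, in TMM-scaled CPM on a logarithmic axis, of the 12 entries that met the p and fold criterion in WD against SD. For 8 entries all WD squares lie left of all SD points, and in 11 of the 12 the rightmost point is a TN mouse. The exception is ENSMUST00000157153, where M1N is highest at 21.3 CPM.

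These 12 calls depended on the choice of SD mice. With TN1 and TN2 left out, 1 of the 12, ENSMUST00000157153, still met the criterion, and 11 kept a negative log2 fold change. With M1N and M2N left out in their place, 11 of the 12 met it. ENSMUST00000158475 had 7.20 and 6.06 CPM in M1N and M2N and 5.29 to 8.77 CPM in the WD mice, but 15.1 and 16.7 CPM in TN1 and TN2.

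The 2 highest entries leaned the other way. ENSMUST00000093623 had 117, 119, 136 and 133 CPM in M1N, M2N, TN1 and TN2, and 179, 147, 133 and 172 CPM in the WD mice. M3W lay within the SD range, and the log2 fold change of 0.32 ± 0.16 did not pass (edgeR adjusted p = 0.349). ENSMUST00000103243 had 19.5, 15.3, 20.5 and 23.6 CPM in the SD mice and 27.6, 37.7, 18.4 and 27.4 CPM in the WD mice, with a log2 fold change of 0.50 ± 0.23 (edgeR adjusted p = 0.338). The 9 entries with counts like 5S rRNA had log2 fold changes of 0.09 to 0.33, and 0 of 42 rRNA entries tested met the criterion. That likeness was drawn from the same counts, so these are not separate results.

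Against M1N and M2N alone, 43 entries were tested and 1 was called at an adjusted p of 0.05, where 20.8% of all small RNAs were. The call was ENSMUST00000157153, lower in WD by a log2 fold change of -1.07 ± 0.31 (edgeR adjusted p = 0.0195). It was lost without M1N and without M5W (0 calls each), and 4, 2 and 2 entries were called without M2N, M1W and M3W. The criterion of p and fold took 13 entries, 10 higher and 3 lower in WD, beside 31.3% of all small RNAs. Of the 10 higher, 9 were the set with counts like 5S rRNA, at log2 fold changes of 0.79 to 0.96, and the tenth was ENSMUST00000103243. The 3 lower were ENSMUST00000157153 and the pair ENSMUST00000158190 and ENSMUST00000158700. This pair had 11 to 13 reads in M1N and M2N but at most 8 in any WD mouse, so it was tested through the M mice. Counted once per set, the 13 became 4, and the count fell to 8 without M2N and to 4 without M5W. The median log2 fold change of the 43 entries was -0.22, beside 0.001 for all small RNAs. With column totals these medians were -0.093 and 0.133. Of the brain markers, miR-124-3p was higher in all WD mice than in M1N and M2N, and its part in these results was not tested.

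Against TN1 and TN2 alone, 45 entries were tested and 5 were called, all lower in WD, where 0.134% of all small RNAs were called. ENSMUST00000158901 was lower by a log2 fold change of -2.31 ± 0.23 (edgeR adjusted p = 1.27e-05), ENSMUST00000158853 by -2.27 ± 0.26 and ENSMUST00000157647 by -1.42 ± 0.23. The other two, ENSMUST00000157830 and ENSMUST00000158886, were low. ENSMUST00000157830 had 26 and 12 reads in TN1 and TN2, 8 and 1 in M1N and M2N, and 6, 2, 1 and 1 in the WD mice. ENSMUST00000158886 had 21 and 9 reads in TN1 and TN2, 6 and 0 in M1N and M2N, and 1, 1, 2 and 0 in the WD mice. Both were under 10 reads in every WD mouse, so they were tested through the TN mice, and DESeq2 called neither (adjusted p = 0.0858 and 0.0808). Without TN1 2 entries were called, without TN2 2, and without M5W 3. The criterion of p and fold took 20 entries, 19 of them lower in WD, beside 3.22% of all small RNAs, and 14 when each set is counted once. Of the 19, 3 were under 10 reads in every WD mouse, the 2 just given and ENSMUST00000102303. The median log2 fold change of the 45 entries was -0.39, beside 0.01 for all small RNAs.

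TN1 and TN2 against M1N and M2N, within the SD diet, gave 7 calls among 48 entries tested, beside 8.54% of all small RNAs. Higher in TN1 and TN2 were ENSMUST00000158017 (log2 fold change 2.45 ± 0.56), ENSMUST00000157830 (2.21 ± 0.65), ENSMUST00000158901 (1.90 ± 0.34), ENSMUST00000158853 (1.77 ± 0.36), ENSMUST00000158475 (1.26 ± 0.33) and ENSMUST00000157647 (0.97 ± 0.28). Their edgeR adjusted p ran from 0.00538 for ENSMUST00000158901 to 0.0398 for ENSMUST00000157830. Lower was ENSMUST00000158140, at 9.77 and 8.80 CPM in TN1 and TN2 and 17.1 and 18.8 CPM in M1N and M2N (log2 fold change -0.93 ± 0.29, edgeR adjusted p = 0.0487). This lower call was lost with DESeq2 (adjusted p = 0.0843), column totals (0.0880), limma-voom (0.0559), upper-quartile factors (0.0551) and no filter (0.0557), and when any single mouse other than M2W was left out. ENSMUST00000158017, with 28 and 25 reads in TN1 and TN2 and 8 and 3 in M1N and M2N, and ENSMUST00000157830 were under 10 reads in both M mice, so they were tested through the other mice. The number of calls was 0 without TN2, 1 without TN1, 2 without M1N and 3 without M2N, where the mouse left alone in its pair is assumed to vary like the others.

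By the criterion of p and fold 29 entries differed between the pairs, 19 higher and 10 lower in TN1 and TN2, or 19 units, beside 25.5% of all small RNAs. Of these, 5 of the higher and 2 of the lower were under 10 reads in both mice of 1 pair and so were tested through the pair where they were high, which leaves 14 higher and 8 lower. Scaling by column totals instead of TMM moved the median of all small RNAs by 0.138 on the log2 scale, and the split was then 25 higher and 4 lower. All 9 entries with counts like 5S rRNA were among the higher, at log2 fold changes of 0.99 to 1.37. Of the rRNA entries tested, 40 of 46 were also higher. The 9 were likened to 22 rRNA entries by these same counts, so their shared direction followed from that choice and is no separate result. The median log2 fold change was 0.48 over the 48 entries, 1.00 over the rRNA entries and -0.29 over 418 mature miRNA names.

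**Figure D5:**
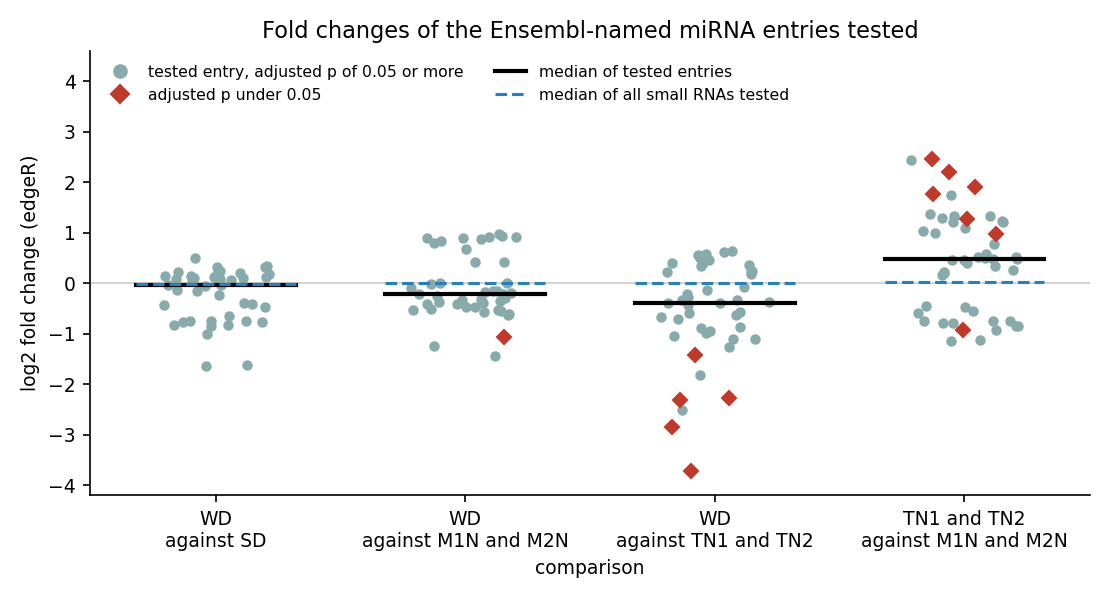
Log2 fold changes from edgeR of the Ensembl-named entries tested in each of 4 comparisons (41, 43, 45 and 48 entries), with red diamonds for an adjusted p under 0.05. The black line is the median of these entries and the dashed line that of all small RNAs tested. The WD comparisons share their WD mice, and the black line moves from -0.22 against M1N and M2N to -0.39 against TN1 and TN2.

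All 97 entries, including the 49 too low for any test, could be placed by whether TN1 and TN2 both lay above or both below the other 6 mice. Both were above in 45 entries (46.4%), or 39 units, beside 2.92% of all small RNAs listed. Both were below in 10 entries (10.3%), beside 2.11%. With column totals these counts were 47 and 9. On unscaled reads, of which TN2 had the fewest in all, they were 25 and 2. The share of all small RNAs was not counted under either of these settings. Among entries under 40 reads the share above was 24 of 46 (52.2%), and among those with 40 reads or more 21 of 51 (41.2%). For the whole table these shares were 5.70% and 2.59%. In the other entries of the miRNA class TN1 and TN2 were above in 4.74%, in rRNA entries in 21.0% and in snRNA entries in 13.2%. Of the rRNA entries under 40 reads TN1 and TN2 were above in 4 of 8 (50.0%), and of those with 40 reads or more in 16.7%. The snRNA entries gave 16.9% and 9.59%. Besides the entries already given, ENSMUST00000157549 had 34.0 and 31.5 CPM in TN1 and TN2 and 16.2 to 29.1 CPM elsewhere, and ENSMUST00000157349 had 26.1 and 27.8 CPM and 14.7 to 24.3 CPM elsewhere. Lower in TN1 and TN2 was ENSMUST00000157328, at 14.2 and 12 CPM, with 16.2 to 23.0 CPM in the other mice. TN1 and TN2 were also the mice with miR-122-5p reads, and the part of these in the results was not tested. What the 2 kinds of name stand for, and any batch they may mark, cannot be told apart from the difference between the pairs.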

How the data were processed

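Testis small RNA of 8 mice was analysed. The authors cut SOLiD reads at the adaptor (otherwise to 31 bases), aligned these to mm9 with Bowtie (2 mismatches allowed) and annotated them with miRBase 18, Rfam and a non-coding RNA database. The submitters' processing notes also name DESeq. The deposited values are raw counts per small RNA in 1 column per mouse. Versions, the counting program and the handling of multiply matching reads are not given in the sources used here.

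Counts were tested with edgeR 4.0.16 in R 4.3.3 (TMM factors, filterByExpr with a minimum count of 10 and a total of 15, quasi-likelihood test, two-sided), with p adjusted by the Benjamini-Hochberg method over all small RNAs tested. Standard errors are approximate. Alternatives were DESeq2 1.42.0, limma 3.58.1, other scalings and filters, each mouse left out and each SD pair alone. CPM is TMM-scaled. PCR copies are not independent molecules, so the floor of 3 counts reflects counting error alone.

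Names and positions came from GENCODE M1 on NCBIM37, the assembly of mm9. Near copies were found with blastn 2.17.0, and folding energies with RNAfold 2.7.2. Members and lists were chosen with earlier results of these data known. Named entries were the 10 highest, those called or apart in WD against SD (tested or not), up to 8 called between the SD pairs, and 10 tied to a named miRNA. These came to more than planned. Other entries are named where a call or count of 5 or fewer required it. Figures used matplotlib 3.10.9. No label gives a batch or date.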

Additional observations from a re-analysis of the deposited data

Results flagged for a closer look

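In the WD group, the Mir27b hairpin entry (ENSMUST00000083541) was lowest in M1W, at 0.329 CPM, whereas the other 3 WD mice lay between 0.877 and 0.933 CPM. The gap was 0.907 of the group's range, above Dixon's 95% critical value for 4 samples. It amounts to 1 read in M1W against 2, 2 and 3 reads in the others, at or below the floor of 3 counts. In the same group ENSMUST00000102176 was highest in M3W at 0.461 CPM, and ENSMUST00000158201 was highest in M5W at 0.311 CPM, 1 read each, where the other 3 WD mice were listed at 0. Of 76 groups of 4 mice examined these 3 were past the critical value, and chance gives about 1 in 20, or 3.8.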

How the results depend on the processing

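In WD against SD, edgeR called 0 entries at an adjusted p under 0.05 under every other test, scaling and filter tried and without any single mouse, with 1 call against M1N and M2N alone, and 5 against the TN pair alone. By the criterion of p and fold the count of 12 became 6 under a minimum of 10 counts in all mice, 40 with no filter, 20 against TN1 and TN2 alone, 7 with each set counted once, and 9 to 14 without 1 mouse. The number 1 is common to M1N and M1W, and the number 2 to M2N and M2W. These are different animals, with deviations that correlated at -0.0779 and 0.243 over 16955 small RNAs. A fit of these 4 mice with the number as a replicate block gave 7 by the criterion and 0 by adjusted p, and the same mice without the block gave 7 and 0. In that fit ENSMUST00000158475 turned to a log2 fold change of 0.128 with the block and 0.130 without it.

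Against M1N and M2N the 1 call became 2 under the same minimum, 4 with column totals (3 of them higher in WD), 2 with limma-voom, 2 with no filter, and 0 to 4 without 1 mouse. The 13 by the criterion, 10 higher and 3 lower in WD, became 6 higher and 3 lower with DESeq2. In all they became 5 under that minimum, 4 with each set counted once, and 4 to 15 without 1 mouse. Against TN1 and TN2 the 5 calls became 3 with DESeq2, 3 under that minimum, and 2 to 6 without 1 mouse. The 20 by the criterion became 10 under that minimum and 50 with no filter. Between the SD pairs the 7 calls became 3 with DESeq2, which gave 29 of 48 entries no adjusted p, 10 with column totals, 7 each with limma-voom and upper-quartile factors, and 0 to 8 without 1 mouse. Under each of these 4 tests and scalings 0 entries were called lower in TN1 and TN2. The 29 by the criterion became 14 under that minimum, 53 with no filter, and 19 with each set counted once. TN1 and TN2 lay above the other 6 mice in 45 entries and below in 10, which became 25 and 2 on unscaled reads. Counting a set once and leaving reads unscaled were chosen after seeing the data.

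The share of reads on the 97 entries differed by -0.00485 percentage points in WD against SD. The difference ran from -0.00978 to -0.000194 without 1 mouse, and turned to 0.00848 percentage points higher in WD against M1N and M2N alone. Entries with almost no difference between the diets changed sign. ENSMUST00000158954 reached 0.180 against TN1 and TN2 alone and -0.226 to 0.078 without 1 mouse. ENSMUST00000157328 reached 0.032 with column totals, 0.003 with limma-voom, 0.397 against TN1 and TN2 alone, and -0.172 to 0.112 without 1 mouse. Apart from where fewer or more entries were tested or set members were merged, the cause of these shifts was not tested. An order per 100 bases was not run, since the length was known for 12 entries. Depth was low for 46 of the 97 entries, which had under 40 reads over the 8 mice.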
